A study of Mus musculus with 6 samples.

Results

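Genes of the neuronal cytoskeleton, the synapse and neural cell adhesion were examined in mouse tumors driven by a synovial sarcoma fusion gene. The 38 genes were given as a list of names, chosen with earlier results of these data known. Most of them are commonly used markers of nerve cells and their precursors. The table of 17312 genes had a row for 34 of them. It had no row for Nefl, Nefm, Stmn4 and Celf3, which were not analysed here. Of the 34, 9 stayed under 1 FPKM in all 6 tumors, another 5 reached 1 FPKM in some tumors but in fewer than 3, and 20 reached it in at least 3 and were tested. FPKM is the number of sequenced fragments per kilobase of transcript, scaled to the size of the library. It does not correct for the share of a library that its most abundant genes take, which can differ between tumors.

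There were 3 tumors with a Cre-lox inducible allele of SS18-SSX2 and 3 with one of SS18-SSX1, each a leg tumor of the mouse Mus musculus, whose RNA was measured in bulk. All 6 had been started with TATCre, a Cre recombinase protein that can cross cell membranes, put into the soft tissue in front of the tibia, were collected about 1 year afterwards and had no other treatment. The sources used here do not say which promoter drives the alleles, which cells took up the Cre, the age of the mice or whether the tumors came from separate mice, so p-values measure no more than the spread among these 6 samples. The comparison asks whether the 2 forms of the fusion gave tumors that differ in these genes, and no group without a fusion was analysed here.

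Synovial sarcoma is a soft tissue tumor in which the SS18 subunit of a BAF chromatin remodelling complex is fused to the end of an SSX protein, and human tumors are known for expressing some neural genes. In nerve cells, neurofilaments and microtubule proteins give axons and dendrites their shape, SNARE proteins and synaptic vesicle proteins release transmitter, granins fill dense-core vesicles, and neurexins, neuroligins and immunoglobulin-type adhesion proteins join cells at contacts. Many of these genes are repressed outside the nervous system by Rest, a zinc finger protein that binds a DNA element called RE1, and several granin and synaptic genes also carry a cyclic AMP response element (CRE).

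Promoter sequence was read for the members from RefSeq (GRCm38.p6), as windows from 250 bases before to 50 bases after an annotated start. Windows were found for 25 of the 38 members, 47 windows in all. They were searched for RE1 as CAGCACC, 2 free bases and GGACAG with at most 1 mismatch on either strand, for CRE as TGACGTCA, which reads the same on both strands, and for the TATA motif TATAAA on the gene's strand. RE1 was found in 61 of 32851 windows of all genes (0.186%) and in 1 of the 47 member windows, that of Syn1. CRE was found in 588 windows (1.79%) and in 5 of the 47 member windows. These belong to 3 members, Syn1, Chgb and Celf3, and the Celf3 windows overlap and hold the same CRE. TATAAA was found in 2733 windows (8.32%) and in 7 of the 47 member windows. These belong to 5 members, Celf3, Chga, Dcx, Elavl3 and Map1b. A match describes letters in the window and is not a binding site, and no match says only that these letters are not there.

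These windows are shown, 5′ to 3′ on the gene's strand, with the matched motifs in capitals. Syn1 (chrX:20920869-20921168, minus strand) holds an RE1 match with 1 mismatch, 230 to 216 bases before the start, and a CRE, 159 to 152 bases before it. Chgb (chr2:132781392-132781691, plus strand) holds a CRE 72 to 65 bases before the start. Chga (chr12:102554691-102554990, plus strand) holds TATAAA 5 to 10 bases after the start. Map2 (chr1:66175079-66175378, plus strand) holds none of the 3 motifs. Of the genes shown, Syn1, Chgb and Chga averaged 0.453, 0.597 and 0.630 FPKM, and Map2 averaged 6.91 FPKM. Among members not shown, Dcx, Elavl3 and Map1b hold TATAAA and averaged 0.268, 0.204 and 26.1 FPKM. Both windows of Syt1 hold none of the motifs, and Syt1 averaged 0.549 FPKM. A link between motif and level was not tested. The share of G and C bases was 68.3%, 72.7%, 62% and 77.7% in the order of the windows.
Syn1: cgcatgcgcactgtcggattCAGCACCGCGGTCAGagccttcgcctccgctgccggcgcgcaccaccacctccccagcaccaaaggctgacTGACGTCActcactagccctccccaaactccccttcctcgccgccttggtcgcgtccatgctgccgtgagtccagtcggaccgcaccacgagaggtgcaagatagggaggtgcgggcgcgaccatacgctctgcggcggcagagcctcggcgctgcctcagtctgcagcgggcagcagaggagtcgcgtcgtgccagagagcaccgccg
Chgb: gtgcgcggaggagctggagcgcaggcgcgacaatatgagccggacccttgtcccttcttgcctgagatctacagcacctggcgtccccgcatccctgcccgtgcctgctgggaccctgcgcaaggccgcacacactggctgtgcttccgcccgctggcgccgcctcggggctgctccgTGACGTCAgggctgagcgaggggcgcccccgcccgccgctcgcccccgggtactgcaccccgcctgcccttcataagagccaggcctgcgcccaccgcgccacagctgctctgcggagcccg
Chga: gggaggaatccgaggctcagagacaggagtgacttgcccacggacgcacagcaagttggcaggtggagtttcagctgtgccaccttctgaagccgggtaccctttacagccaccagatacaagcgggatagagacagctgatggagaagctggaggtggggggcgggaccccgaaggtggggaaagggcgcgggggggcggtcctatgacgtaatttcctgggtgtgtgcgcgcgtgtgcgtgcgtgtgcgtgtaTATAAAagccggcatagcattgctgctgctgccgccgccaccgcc
Map2: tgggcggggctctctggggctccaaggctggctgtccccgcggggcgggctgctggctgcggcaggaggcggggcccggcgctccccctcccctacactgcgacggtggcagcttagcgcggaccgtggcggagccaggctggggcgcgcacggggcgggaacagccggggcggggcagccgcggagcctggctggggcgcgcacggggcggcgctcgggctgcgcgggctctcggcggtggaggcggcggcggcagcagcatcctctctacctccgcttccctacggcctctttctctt

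The steps between low FPKM values put 14529847, 7285853 and 14357648 reads behind SS18-SSX2 tumors 1, 2 and 3 and 13316363, 13767916 and 17546227 behind SS18-SSX1 tumors 1, 2 and 3. A single read in 1 kb of transcript was worth 0.137 FPKM in the shallowest library, SS18-SSX2 tumor 2, and 0.0570 to 0.0751 FPKM in the other 5. RNA of other cell types differed between tumors of 1 genotype. Skeletal muscle fibre genes (16 of 16 measured) had a mean log2(FPKM + 1) of 7.61 in SS18-SSX2 tumor 2 and 8.78 in SS18-SSX1 tumor 2, against 2.74 to 4.0 in the other 4 tumors. Endothelial genes (8 of 8) averaged 1.98 and 1.65 in the same tumors, against 2.72 to 3.57 elsewhere. Mast cell genes (8 of 8) averaged 7.41 in SS18-SSX1 tumor 3, against 1.24 to 3.28 in the others. Macrophage genes (9 of 9) averaged 1.91 to 3.58 in SS18-SSX2 tumors and 1.45 to 3.19 in SS18-SSX1 tumors, and myoblast genes (7 of 9) averaged 1.01 to 2.88 in SS18-SSX2 tumors and 0.789 to 2.51 in SS18-SSX1 tumors. Of 9 pericyte and smooth muscle genes 8 had the higher mean log2 value in SS18-SSX2 tumors, and Acta2, smooth muscle actin, was called higher there, with 19.96 to 28.4 FPKM in SS18-SSX2 tumors and 3.58 to 5.10 FPKM in SS18-SSX1 tumors (log2 difference 2.27, limma Benjamini-Hochberg adjusted p = 0.0474, with 0.0341 to 0.392 over the alternatives). In whole tumors, fewer cells of a type and less RNA per cell cannot be told apart.

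The members ran from nearly absent to abundant (plot of all members by tumor). By mean FPKM over the 6 tumors Ncam1, the neural cell adhesion molecule, led at 67.1 FPKM, which ranked 595 among the 17312 genes, and was followed by the growth cone protein gene Dpysl3 at 37.5 FPKM, the inhibitory synapse adhesion gene Nlgn2 at 33.5 FPKM, the microtubule gene Map1b at 26.1 FPKM and the ion channel gene Asic4 at 25.7 FPKM. An average of 5 FPKM or more was reached by 10 members. The lowest means were those of Elavl4, Elavl2, Snap25 and Elavl3, at 0.0393, 0.163, 0.202 and 0.204 FPKM. Not all genes of mature nerve cells were that low, since Vamp2, Map2, Mapt and Syp averaged 18.0, 6.91, 4.81 and 4.603 FPKM. They ranked 3951, 8721, 10185 and 10341 among the 17312 genes.

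**Figure D1:**
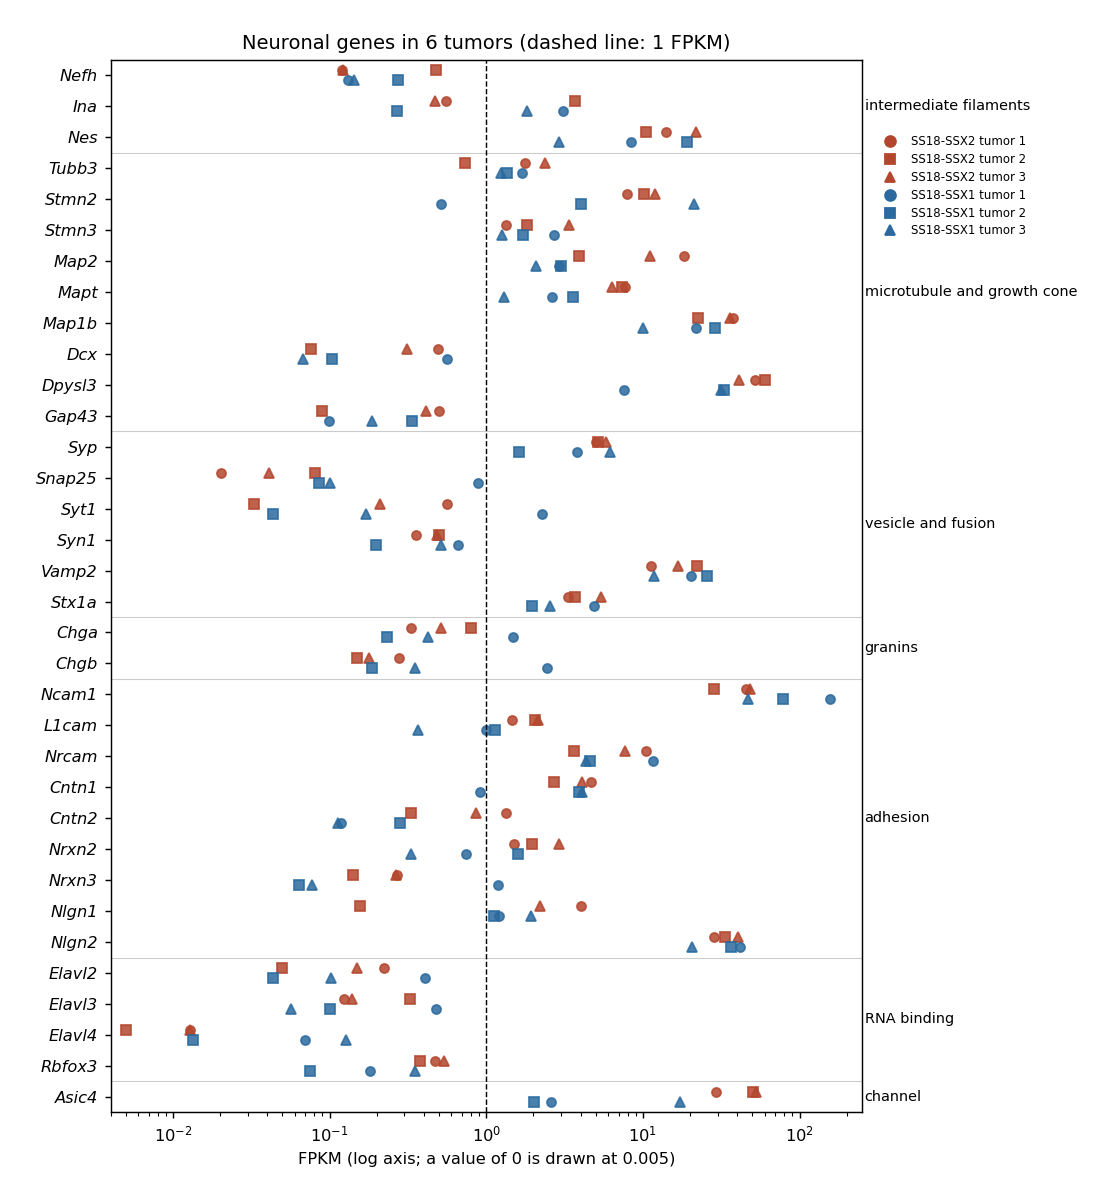
Level of each of the 34 measured members in each tumor, in FPKM on a log axis, grouped by role, with SS18-SSX2 tumors in red above SS18-SSX1 tumors in blue and the tumor number given by the marker shape; the dashed line marks 1 FPKM. The 9 genes with every point left of the line are Nefh, Dcx, Gap43, Snap25, Syn1, Elavl2, Elavl3, Elavl4 and Rbfox3.

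None of the 20 tested members passed the test between genotypes. With limma on log2(FPKM + 1) and Benjamini-Hochberg adjustment at 0.05, 0 members were called, beside 9 of the 13873 genes tested (0.0649%). At an unadjusted p under 0.05, 4 members passed, all higher in SS18-SSX2 tumors, beside 689 of the genes tested (4.97%). They were Asic4, Mapt, Map2 and Dpysl3. The 2 genotypes did not overlap for these 4 and for L1cam, beside 1210 of the genes tested (8.72%). A second test, limma voom on the recovered reads, called 0 members, beside 6 of the 13851 genes it tested. Its unadjusted p-values are not read here, since the share of all genes under 0.05 was not counted for this test. For 8551 of the 17312 genes (49.4%), the smallest length giving whole reads stood in for the annotated length. Dpysl3, Map1b, Ncam1 and Stmn2 are among them, so their reads are less certain. The mean log2 value was higher in SS18-SSX2 tumors for 17 of the 20 tested members and lower for 3, Ina, Vamp2 and Ncam1. The median log2 difference was 0.44 over these 20 and 0.01 over the genes tested. Since the members were chosen with earlier results of these data known, these comparisons describe the list and do not test it. The pericyte and smooth muscle genes had a mean log2(FPKM + 1) of 3.56, 3.68 and 3.41 in SS18-SSX2 tumors 1, 2 and 3, against 2.90, 3.37 and 2.47 in SS18-SSX1 tumors 1, 2 and 3, with no overlap, while their summed FPKM was 129 to 233 in SS18-SSX2 tumors and 67.8 to 274 in SS18-SSX1 tumors and overlapped. By mean log2 value, but not by summed FPKM, this list had the direction of most tested members. Other lists differed, with 15 of 16 skeletal muscle fibre genes and 7 of 7 tested mast cell genes lower in SS18-SSX2 tumors. Endothelial genes had 5 higher and 3 lower, and macrophage genes 4 higher and 5 lower. The part of any of these cells in the member values was not tested.

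**Figure D2:**
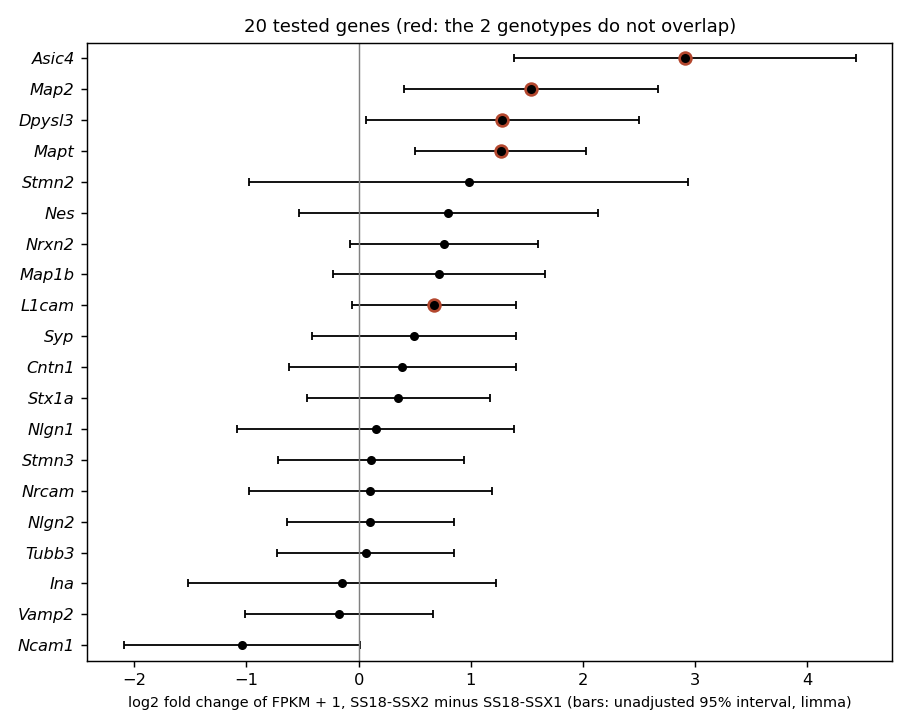
Difference in log2(FPKM + 1), SS18-SSX2 minus SS18-SSX1, for the 20 tested members, with unadjusted 95% limma intervals; a red ring marks genes whose genotypes do not overlap. Asic4 stands farthest to the right at 2.91, and Ncam1 farthest to the left at -1.04.

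Of the 3 intermediate filament genes with a row, nestin was the highest and the heavy neurofilament chain the lowest in mean FPKM. Nes, the filament protein of neural precursors and also of growing muscle and vessel cells, had 14.0, 10.5 and 21.8 FPKM in SS18-SSX2 tumors 1, 2 and 3, against 8.39, 19.2 and 2.92 FPKM in SS18-SSX1 tumors 1, 2 and 3. The ranges overlapped, and the log2 difference was 0.80 (SE 0.58, limma Benjamini-Hochberg adjusted p = 0.997). The log2 difference was 0.19 without SS18-SSX1 tumor 3 and 1.38 without SS18-SSX1 tumor 2. Nefh, the heavy neurofilament chain, lay between 0.121 and 0.481 FPKM in the 6 tumors, which is 7 to 15 reads. Peripherin, the filament of peripheral neurons encoded by Prph and not a member, was far higher than Nes, at 37.4, 88.1 and 62.2 FPKM in the SS18-SSX2 tumors and 64.1, 49.97 and 32.4 FPKM in the SS18-SSX1 tumors, and its genotypes overlapped.

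Ina, the alpha-internexin filament of young neurons, had 0.552, 3.69 and 0.473 FPKM in the SS18-SSX2 tumors, against 3.08, 0.269 and 1.83 FPKM in the SS18-SSX1 tumors. It was high in 1 SS18-SSX2 tumor and in 2 SS18-SSX1 tumors, and the ranges overlapped (log2 difference -0.15, SE 0.59). Ina shares 14.1% of its exon bases with Nt5c2 on the opposite strand, and the sources used here do not say whether the counts used strand.

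Microtubule and growth cone genes held 3 of the 4 members with the smallest p-values, and all 9 with a row had the higher mean FPKM in SS18-SSX2 tumors. Mapt, which encodes the axonal microtubule protein tau, had 7.69, 7.31 and 6.37 FPKM in the SS18-SSX2 tumors, against 2.63, 3.58 and 1.29 FPKM in the SS18-SSX1 tumors. The SS18-SSX2 tumors were close together and all above the highest SS18-SSX1 tumor. The means were 7.13 ± 0.680 and 2.502 ± 1.15 FPKM (SD, n = 3 each), and the log2 difference was 1.27 (SE 0.33, limma Benjamini-Hochberg adjusted p = 0.593). Mapt lies on chromosome 11 from 104231390 to 104332090 (GRCm38, plus strand), and its values rest on 401 to 842 reads in SS18-SSX2 tumors and 171 to 371 reads in SS18-SSX1 tumors.

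Map2, the microtubule protein of dendrites, had 18.4, 3.94 and 11.2 FPKM in the SS18-SSX2 tumors, against 2.89, 2.98 and 2.075 FPKM in the SS18-SSX1 tumors. The genotypes did not overlap, but SS18-SSX2 tumor 2 lay far nearer to the SS18-SSX1 tumors than to the other 2 of its genotype. The means were 11.2 ± 7.22 and 2.65 ± 0.4996 FPKM (SD, n = 3 each) and the log2 difference 1.54 (SE 0.49, limma Benjamini-Hochberg adjusted p = 0.786). SS18-SSX2 tumor 2 is also the shallowest library and 1 of the 2 rich in muscle RNA, and the part of these in its Map2 level was not tested. Without tumor 2 of both genotypes the log2 difference was 2.15 (adjusted p = 0.185, with 0.185 to 1.000 over all alternatives).

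Dpysl3, a collapsin response mediator protein of growth cones, had 51.9, 60.2 and 41.0 FPKM in the SS18-SSX2 tumors, against 7.60, 33.2 and 31.4 FPKM in the SS18-SSX1 tumors. All 3 SS18-SSX2 tumors were above all 3 SS18-SSX1 tumors, and SS18-SSX1 tumor 1 was far below the rest. The means were 51.0 ± 9.67 and 24.1 ± 14.3 FPKM (SD, n = 3 each) and the log2 difference 1.28 (SE 0.53, limma Benjamini-Hochberg adjusted p = 0.984). It was 0.63 without SS18-SSX1 tumor 1.

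Map1b, a microtubule protein of growing axons, had 37.5, 22.4 and 36.0 FPKM in the SS18-SSX2 tumors, against 21.9, 28.8 and 10.1 FPKM in the SS18-SSX1 tumors. The genotypes overlapped through tumor 2 of each, which was the lowest SS18-SSX2 tumor and the highest SS18-SSX1 tumor. Stmn2, a stathmin of growing neurites that destabilizes microtubules, had 7.88, 10.2 and 11.9 FPKM in the SS18-SSX2 tumors, against 0.513, 4.01 and 21.2 FPKM in the SS18-SSX1 tumors. Its range over all 6 tumors, 41.3-fold, came from the SS18-SSX1 tumors, which held both the lowest and the highest value. Its log2 difference of 0.98 (SE 0.84) was 0.05 without SS18-SSX1 tumor 1 and 1.98 without SS18-SSX1 tumor 3.

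The remaining microtubule and growth cone genes were low. Tubb3, the neuronal beta tubulin, had 1.77, 0.735 and 2.39 FPKM in the SS18-SSX2 tumors, against 1.69, 1.36 and 1.25 FPKM in the SS18-SSX1 tumors. It made up 0.199% to 0.552% of the summed FPKM of 7 beta tubulin genes in a tumor, and its log2 difference was 0.06 (SE 0.34). Stmn3, another neuronal stathmin, lay between 1.25 and 3.37 FPKM in the 6 tumors, with a log2 difference of 0.11. Dcx, the doublecortin of migrating neurons, was at 0.0676 to 0.558 FPKM, and Gap43, a growth cone membrane protein, at 0.0901 to 0.497 FPKM.

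**Figure D3:**
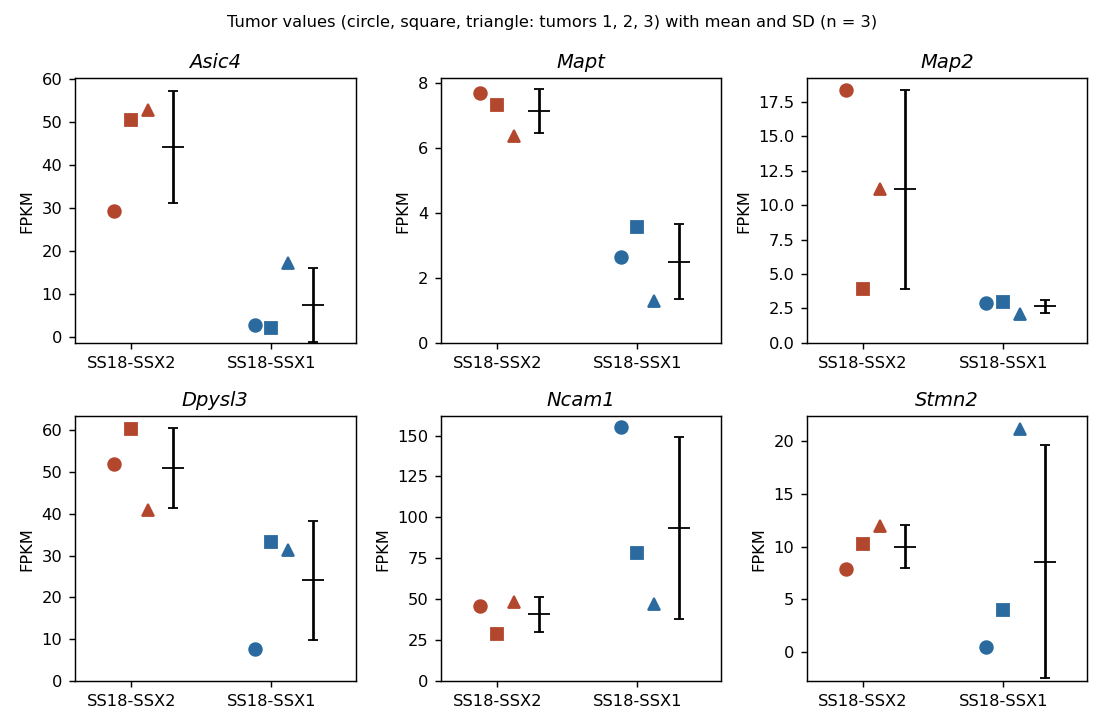
FPKM of 6 members in the SS18-SSX2 tumors, on the left, and the SS18-SSX1 tumors, on the right, with the mean and SD of each genotype (n = 3). The genotypes are apart for Asic4, Mapt, Map2 and Dpysl3, while Ncam1 and Stmn2 overlap, with SS18-SSX1 tumors spread between 0.513 and 21.2 FPKM for Stmn2.

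Vesicle and fusion genes split into 3 above 1 FPKM in every tumor and 3 under 1 FPKM in at least 5 tumors. Vamp2, the vesicle SNARE also used in other secretory cells, had 11.3, 22.1 and 16.8 FPKM in the SS18-SSX2 tumors, against 20.4, 25.7 and 11.8 FPKM in the SS18-SSX1 tumors, with a log2 difference of -0.18 (SE 0.36). Syp, the synaptic vesicle protein synaptophysin, had 5.02, 5.16 and 5.83 FPKM in the SS18-SSX2 tumors, against 3.78, 1.63 and 6.20 FPKM in the SS18-SSX1 tumors. Stx1a, the SNARE of the cell membrane, had 3.30, 3.71 and 5.43 FPKM in the SS18-SSX2 tumors, against 4.90, 1.96 and 2.57 FPKM in the SS18-SSX1 tumors. For Vamp2, Syp and Stx1a the genotypes overlapped, and the adjusted limma p was 0.997 for each. Syp shares 16.8% of its exon bases with the antisense gene Gm14703.

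Snap25, the SNARE that pairs with Stx1a, had 0.0203, 0.0808 and 0.0410 FPKM in the SS18-SSX2 tumors, against 0.885, 0.0856 and 0.101 FPKM in the SS18-SSX1 tumors. That is 2, 4 and 4 reads in SS18-SSX2 tumors and 80, 8 and 12 reads in SS18-SSX1 tumors, so most of the signal came from SS18-SSX1 tumor 1. Syt1, the calcium sensor of release, had 0.561, 0.0329 and 0.209 FPKM in the SS18-SSX2 tumors, against 2.28, 0.0436 and 0.171 FPKM in the SS18-SSX1 tumors, again with SS18-SSX1 tumor 1 far above the rest. Syn1, the vesicle-tethering protein synapsin, had no tumor standing apart, at 0.355, 0.499 and 0.486 FPKM in SS18-SSX2 tumors and 0.660, 0.198 and 0.518 FPKM in SS18-SSX1 tumors.

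Both granins, the core proteins of dense-core vesicles, were highest in SS18-SSX1 tumor 1. Chgb had 0.276, 0.150 and 0.178 FPKM in the SS18-SSX2 tumors, against 2.44, 0.186 and 0.354 FPKM in the SS18-SSX1 tumors, which is 11, 3 and 7 reads against 89, 7 and 17. Chga had 0.329, 0.802 and 0.518 FPKM in the SS18-SSX2 tumors, against 1.48, 0.232 and 0.424 FPKM in the SS18-SSX1 tumors. Without that tumor the ranges of the genotypes lay over each other, and neither gene reached 1 FPKM in enough tumors to be tested.

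Rest itself was at 27.6, 23.5 and 24.2 FPKM in the SS18-SSX2 tumors, against 31.4, 18.6 and 29.3 FPKM in the SS18-SSX1 tumors. It was well above Syn1, Snap25, Syt1, Chga and Chgb in every tumor, and its genotypes overlapped (log2 difference -0.04, SE 0.27, limma adjusted p = 0.997). SS18-SSX1 tumor 1, with the highest Chgb, Chga, Snap25 and Syt1, also had the highest Rest level, by a small margin. These are RNA levels of whole tumors, and a link between Rest and these genes was not tested.

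**Figure D4:**
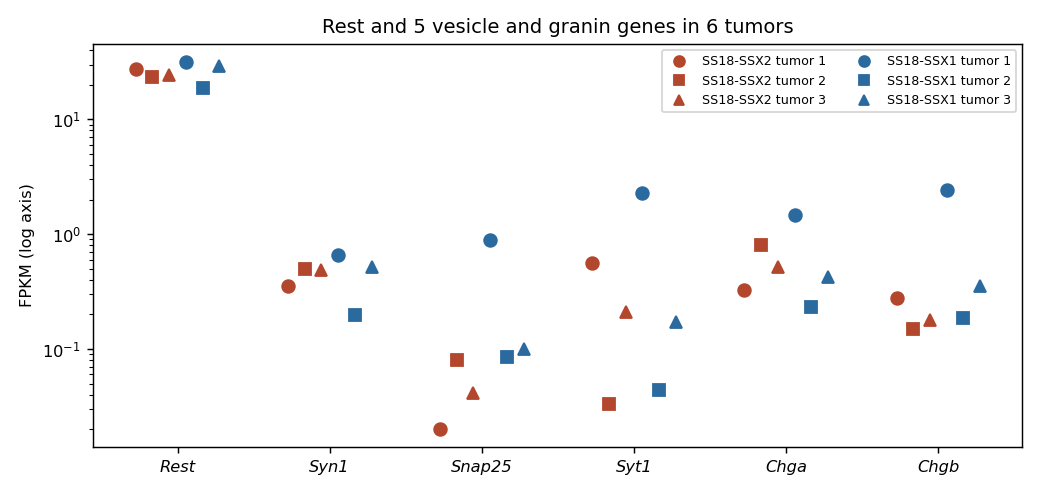
FPKM on a log axis of Rest and of Syn1, Snap25, Syt1, Chga and Chgb in the 6 tumors, with SS18-SSX2 tumors (red) left of SS18-SSX1 tumors (blue). Rest stays between 18.6 and 31.4 FPKM, and SS18-SSX1 tumor 1, the blue circle, is the highest point for each of the 5 vesicle and granin genes.

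Each of the 9 adhesion genes reached 1 FPKM in at least 1 tumor, and their directions were mixed. Ncam1 had 45.8, 28.5 and 48.2 FPKM in the SS18-SSX2 tumors, against 155, 77.9 and 47.0 FPKM in the SS18-SSX1 tumors. SS18-SSX1 tumors 1 and 2 were above all other tumors, and SS18-SSX1 tumor 3 lay among the SS18-SSX2 tumors. The means were 40.8 ± 10.7 and 93.4 ± 55.8 FPKM (SD, n = 3 each) and the log2 difference -1.04 (SE 0.45, limma Benjamini-Hochberg adjusted p = 0.997), the lowest of the tested members. It was -0.59 without SS18-SSX1 tumor 1.

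L1cam, an immunoglobulin-type adhesion protein of axons, had 1.46, 2.05 and 2.13 FPKM in the SS18-SSX2 tumors, against 1.00, 1.14 and 0.365 FPKM in the SS18-SSX1 tumors. The genotypes did not overlap, with a log2 difference of 0.67 (SE 0.32, limma adjusted p = 0.997). Nrcam, of the same family, had 10.5, 3.62 and 7.72 FPKM in the SS18-SSX2 tumors, against 11.6, 4.58 and 4.31 FPKM in the SS18-SSX1 tumors, where tumor 1 of each genotype was the highest. Cntn1, a contactin anchored in the membrane by a lipid, had 4.68, 2.69 and 4.07 FPKM in the SS18-SSX2 tumors, against 0.916, 3.89 and 4.07 FPKM in the SS18-SSX1 tumors, so SS18-SSX1 tumor 1 stood apart at the low end. Cntn2, a related contactin, had 1.34, 0.331 and 0.862 FPKM in the SS18-SSX2 tumors, against 0.118, 0.282 and 0.114 FPKM in the SS18-SSX1 tumors. Its genotypes did not overlap, but only 1 tumor passed 1 FPKM and it was not tested.

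Among the neurexins, receptors of the sending side of a synapse, Nrxn2 had 1.51, 1.97 and 2.93 FPKM in the SS18-SSX2 tumors, against 0.745, 1.59 and 0.330 FPKM in the SS18-SSX1 tumors, an overlap by SS18-SSX1 tumor 2 alone (log2 difference 0.76, SE 0.36). Nrxn3 lay at 0.0636 to 0.269 FPKM in 5 tumors and at 1.18 FPKM in SS18-SSX1 tumor 1. Of the neuroligins, which bind neurexins from the receiving side, Nlgn2 had the smallest range over the 6 tumors of the 34 members, 2.03-fold, with 28.4, 33.5 and 40.7 FPKM in the SS18-SSX2 tumors and 41.6, 36.4 and 20.5 FPKM in the SS18-SSX1 tumors. Nlgn1, the neuroligin of excitatory synapses, had 4.01, 0.157 and 2.22 FPKM in the SS18-SSX2 tumors, against 1.21, 1.12 and 1.92 FPKM in the SS18-SSX1 tumors. SS18-SSX2 tumor 2 alone was under 1 FPKM, and the sign of its log2 difference of 0.15 (SE 0.53) changed with a pseudocount of 0.1 and with voom.

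The 4 neuronal RNA-binding genes with a row were under 1 FPKM in every tumor. Elavl2, Elavl3 and Elavl4, the Hu proteins that stabilize neuronal transcripts, lay at 0.0437 to 0.407, 0.0567 to 0.478 and 0 to 0.127 FPKM. Together they were 0.818% to 3.71% of the summed FPKM of the Elavl family, with the rest from the ubiquitous Elavl1. Elavl4 had 1, 0 and 1 reads in the SS18-SSX2 tumors, against 5, 1 and 12 reads in the SS18-SSX1 tumors, so the highest SS18-SSX2 and the lowest SS18-SSX1 value each rest on 1 read. Rbfox3, the splicing factor detected as NeuN, had 0.473, 0.377 and 0.539 FPKM in the SS18-SSX2 tumors, against 0.181, 0.0749 and 0.353 FPKM in the SS18-SSX1 tumors. Its genotypes did not overlap, on 16 to 45 reads against 6 to 36 reads a tumor, and it was 0.199% to 1.87% of the Rbfox family.

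Asic4, a member of the acid-sensing ion channel family that carries little current by itself, had the largest log2 difference between genotypes of the 20 tested members. It had 29.2, 50.5 and 52.9 FPKM in SS18-SSX2 tumors 1, 2 and 3, against 2.59, 2.02 and 17.3 FPKM in SS18-SSX1 tumors 1, 2 and 3, on 1157, 1004 and 2070 reads against 94, 76 and 826 reads. All SS18-SSX2 tumors were above all SS18-SSX1 tumors, and SS18-SSX1 tumor 3 lay between the other 2 of its genotype and the SS18-SSX2 tumors. The means were 44.2 ± 13.0 and 7.29 ± 8.64 FPKM (SD, n = 3 each), a ratio of 6.06. The log2 difference was 2.91 (SE 0.66, limma Benjamini-Hochberg adjusted p = 0.489, unadjusted 95% interval 1.38 to 4.43). Of the 16 alternatives, it passed the adjusted threshold only when SS18-SSX1 tumor 3, the tumor rich in mast cell RNA, was left out, at 3.73 (adjusted p = 0.0335). Over all alternatives the adjusted p ran from 0.0335 to 1.000.

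Asic4 lies on chromosome 1 from 75450436 to 75474343 (GRCm38, plus strand), and 18.1% of its exon bases overlap Gm37264 on the opposite strand. Of the 4 other channels of the family, Asic3 and Asic5 had no row. Asic1 had 1.13, 3.68 and 1.20 FPKM in the SS18-SSX2 tumors, against 0.499, 0.463 and 0.560 FPKM in the SS18-SSX1 tumors (log2 difference 0.90, limma Benjamini-Hochberg adjusted p = 0.990). Asic2 stayed under 1 FPKM in all tumors. Asic4 and Asic1 both had the 3 SS18-SSX2 tumors above the 3 SS18-SSX1 tumors, with Asic1 far lower in level.

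Members also differed between tumors of 1 genotype. Over the 34 measured members, SS18-SSX1 tumor 1 held the highest value of 12, which is 35.3% of them, where it held the highest value of 20.4% of the genes in the table. They were Dcx, Snap25, Syt1, Syn1, Chga, Chgb, Ncam1, Nrcam, Nrxn3, Nlgn2, Elavl2 and Elavl3. Of these 12, 9 were among the 14 members too low to test, or 64.3% of those 14, beside 22.2% of the 3439 untested genes. SS18-SSX2 tumors 1, 2 and 3 held the highest value of 7, 3 and 8 members, or 20.6%, 8.82% and 23.5%, beside 12.2%, 18.3% and 12.9% of the genes in the table. SS18-SSX1 tumors 2 and 3 held the highest value of 1 and 3 members, or 2.94% and 8.82%, beside 13.4% and 22.8% of the genes in the table.

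The gap was wide for a few genes. In SS18-SSX1 tumor 1, Syt1 was 13.3 times, Chgb 13.1 times, Snap25 10.9 times, Nrxn3 8.33 times, Dcx 5.40 times, Elavl2 3.95 times, Elavl3 3.88 times and Chga 3.48 times the median of the other 5 tumors. In the same tumor Stmn2, Dpysl3 and Cntn1 were the lowest of the 6. The lowest values of most members lay in 3 tumors, since SS18-SSX2 tumor 2 held the lowest of 8, SS18-SSX1 tumor 2 of 9 and SS18-SSX1 tumor 3 of 11. The share of all genes with their lowest value in each tumor was not counted. Whether these counts are particular to the members is therefore not known. Tumor 2 of each genotype was rich in muscle RNA and SS18-SSX1 tumor 3 in mast cell RNA. The part of those cells in the member values was not tested.

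**Figure D5:**
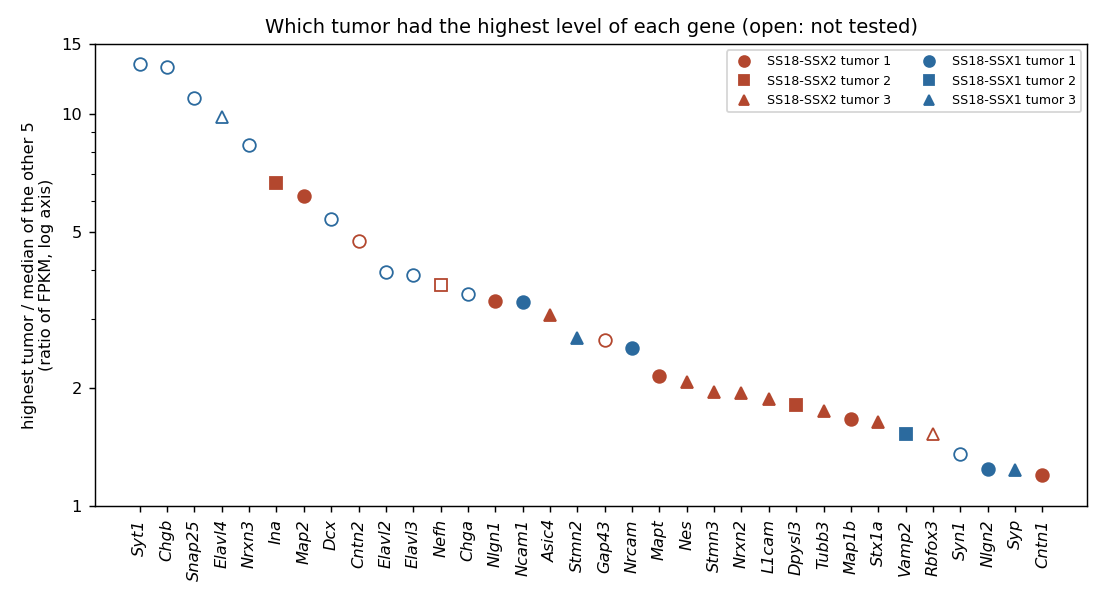
For each of the 34 members, the highest of the 6 tumors divided by the median of the other 5, on a log axis, with the color and shape naming that highest tumor and open symbols marking members too low to test. Syt1, Chgb and Snap25 lead at 13.3, 13.1 and 10.9, each with SS18-SSX1 tumor 1 (open blue circle) on top.

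Over all 34 measured members, tested or not, the genotypes did not overlap for 9, beside 1595 of the 17312 genes of the table (9.21%). Of the 9, 7 were higher in SS18-SSX2 tumors, the 5 tested ones named above with Cntn2 and Rbfox3, and 2 were lower, Snap25 and Elavl4. Both rest on few reads. For Snap25 the nearest values were 0.0808 FPKM on 4 reads in SS18-SSX2 tumor 2 and 0.0856 FPKM on 8 reads in SS18-SSX1 tumor 2. For Elavl4 the nearest values rest on 1 read each. By mean FPKM, 22 of the 34 members were higher and 12 lower in SS18-SSX2 tumors.

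Markers of nerve tissue were checked because nerves run through the leg. Of 15 genes of Schwann cells and peripheral nerve, 13 had a row and Sox10 and Cdh19 had none. Of the 13, 7 were tested and 0 called. The 3 highest in mean FPKM were Ngfr, Pmp22 and Cnp. The summed FPKM of the list was 188 to 257 in SS18-SSX2 tumors and 130 to 244 in SS18-SSX1 tumors, and the part of these cells in the member values was not tested. Ngfr, the neurotrophin receptor, had 145, 105 and 183 FPKM in the SS18-SSX2 tumors and 76.8, 51.7 and 137 FPKM in the SS18-SSX1 tumors. Pmp22, a membrane protein also made outside nerve, had 46.8, 37.4 and 44.4 FPKM in the SS18-SSX2 tumors and 27.3, 55.5 and 70.4 FPKM in the SS18-SSX1 tumors, and Cnp had 12.3, 29.3 and 18.0 FPKM in the SS18-SSX2 tumors and 12.9, 18.5 and 23.1 FPKM in the SS18-SSX1 tumors. Of 16 genes for the transmitter type of nerve cell bodies 9 had no row, among them Th, Chat and Trpv1. Of the 4 tested, 2 were higher and 2 lower in SS18-SSX2 tumors, with a median log2 difference of -0.09.

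Of 7 lists of related neuronal genes outside the 38, limma called 0 genes in each. Of 21 other genes of neuronal structure 20 were tested, 15 had the higher mean log2 value in SS18-SSX2 tumors and 5 the lower, and 4 were higher at an unadjusted p under 0.05. The median log2 difference was 0.36, beside 0.01 over all genes tested. Dclk1, a kinase related to doublecortin, had 38.5, 7.55 and 29.5 FPKM in the SS18-SSX2 tumors, against 1.86, 7.91 and 2.88 FPKM in the SS18-SSX1 tumors, where tumor 2 of both genotypes had about the same level. Its log2 difference was 2.24 (SE 0.64, limma adjusted p = 0.661), and 3.38 without tumor 2 of both genotypes (adjusted p = 0.0388, with 0.0388 to 1.000 over all alternatives). Dpysl5, of the family of Dpysl3, had 10.4, 10.1 and 13.8 FPKM in the SS18-SSX2 tumors, against 6.15, 5.69 and 2.22 FPKM in the SS18-SSX1 tumors, with no overlap (log2 difference 1.20, adjusted p = 0.727). Kif5c, a kinesin of axons, did not overlap either, at 4.30 to 5.65 FPKM in SS18-SSX2 tumors and 1.75 to 3.18 FPKM in SS18-SSX1 tumors.

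Of 33 other genes of synapse and secretion 18 were tested, 12 with the higher and 6 with the lower mean log2 value in SS18-SSX2 tumors, with a median log2 difference of 0.06. Shank1, a scaffold protein of the receiving side of a synapse, had 7.18, 8.24 and 15.3 FPKM in the SS18-SSX2 tumors, against 8.10, 4.45 and 2.35 FPKM in the SS18-SSX1 tumors (limma adjusted p = 0.997). Of 21 other adhesion genes 10 were tested, 4 higher and 6 lower, with 1 in each direction at an unadjusted p under 0.05 and a median log2 difference of -0.10. Clstn3, a calsyntenin of synapses, had 1.88, 3.07 and 0.701 FPKM in the SS18-SSX2 tumors, against 12.6, 12.8 and 13.7 FPKM in the SS18-SSX1 tumors. Its 2 genotypes were far apart, with a log2 difference of -2.37 (SE 0.36, limma Benjamini-Hochberg adjusted p = 0.172). Nlgn3, another neuroligin, had 23.1, 8.13 and 21.1 FPKM in the SS18-SSX2 tumors, against 11.8, 4.97 and 5.99 FPKM in the SS18-SSX1 tumors.

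Of 15 regulators of neuronal RNA and of neuronal repression 9 were tested, 3 higher and 6 lower, with a median log2 difference of -0.11. Ptbp1, the repressor of neuronal splicing, had 57.7, 45.6 and 70.3 FPKM in the SS18-SSX2 tumors, against 47.6, 46.2 and 39.6 FPKM in the SS18-SSX1 tumors. Of 20 proneural and neuronal transcription factors 10 were tested, 5 higher and 5 lower with a median log2 difference of 0.005, and 1 was lower at an unadjusted p under 0.05. That was Ebf2, an early B-cell factor also of mesenchymal precursors, with 0.586, 26.3 and 0.533 FPKM in the SS18-SSX2 tumors, against 126, 7.33 and 34.6 FPKM in the SS18-SSX1 tumors. Its genotypes overlapped through tumor 2 of each, and its log2 difference of -3.05 (limma adjusted p = 0.990) was -5.43 without tumor 2 of both genotypes (adjusted p = 0.0388, with 0.0388 to 1.000 over all alternatives). Neurog3, a proneural factor, was highest in SS18-SSX1 tumors 1 and 3, at 17.8 and 8.40 FPKM, and at 1.04 to 1.58 FPKM in the other 4 tumors.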

How the data were processed

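Total RNA of 6 snap-frozen tumors was extracted with RNeasy kits and depleted of ribosomal RNA with Ribo-Zero, per the labels' protocols. The authors deposited 1 table of FPKM values, with 1 column per tumor. Novoalign 2.08.03 and the build mm10 are named in the submitters' processing notes. The sources used here do not give how reads were counted, on which gene models, with or without strand, or which genes were filtered out, so values of overlapping or near-identical genes are less certain. Columns were matched to tumors by the sample descriptions; the SS18-SSX2 columns are tagged SSM2, where the titles say hSS2.

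Symbols came from GENCODE mouse release 21 (GRCm38) for 17029 of 17312 genes. Genes with at least 1 FPKM in at least 3 tumors entered a two-sided test on log2(FPKM + 1) by lmFit and eBayes with a trend (R 4.3.3, limma 3.58.1), with Benjamini-Hochberg adjustment over 13873 genes and a threshold of 0.05. Fold changes on this scale understate the change of low genes. Read totals were set from the steps between low FPKM values of single-exon genes, of which 77.7% to 79.8% came out whole within 0.02 reads; reads are printed only for genes whose annotated length fits. The fit and the read recovery were tested on simulated data. Other steps used matplotlib 3.10.9, numpy 2.4.6, pandas 2.3.3 and Python 3.11.15.

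The members and gene lists were chosen with earlier results of these data known. By the rule for names, all members could be named, with up to 3 genes of each other list by mean FPKM and up to 3 by p; Prph, Th, Chat, Trpv1 and Acta2 were named beside their lists after their values were seen. Some results of these lists are not reported here. Alternatives were other pseudocounts and filters, quantile normalization, TPM, no trend, the tumor number as a block, leaving out tumors, and voom on recovered reads.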

Additional observations from a re-analysis of the deposited data

How the results depend on the processing

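Of 190 member results under alternatives that kept all tumors or left out tumor 2 of both genotypes, 2 changed sign, both of Nlgn1, at -0.13 with a pseudocount of 0.1 and -0.017 with voom. Of 120 with 1 tumor left out, 16 changed sign. These were of small differences, which ran from -0.69 to 0.22 for Ina, -0.15 to 0.34 for Tubb3, -0.15 to 0.31 for Stmn3, -0.48 to 0.064 for Vamp2, -0.18 to 0.51 for Nrcam, -0.071 to 0.63 for Cntn1, -0.31 to 0.75 for Nlgn1, -0.20 to 0.30 for Nlgn2 and, outside the members, -0.94 to 0.11 for Gad2. The number of members called stayed at 0 under every alternative with all tumors and was 0 to 1 with 1 tumor left out, the 1 being Asic4 without SS18-SSX1 tumor 3. The number of members without overlap, 5 beside 8.72% of the genes tested, was 9 with no filter and 3 at a mean of at least 5 FPKM. With 1 tumor left out, 6 to 9 members did not overlap (9 without SS18-SSX2 tumor 2, 8 without SS18-SSX1 tumor 2 or 3). The share of the genes tested without overlap rose as well in these fits, to between 10.9% and 23.1%. Without tumor 2 of both genotypes, 12 members and 35.4% of the genes tested did not overlap. The count of called genes over the table, 9, was 5 with a pseudocount of 0.1, 4 with the tumor number as a replicate block, 3 to 11 with 1 tumor left out (3 without SS18-SSX2 tumor 3) and 20 without tumor 2 of both genotypes. Same-numbered tumors deviated from their genotype means with correlations of 0.38, 0.31 and -0.28, and SS18-SSX2 tumor 3 correlated best with SS18-SSX1 tumor 1 (0.23), so the numbers were not taken to pair the tumors, and the replicate block called 0 members. Fewer tumors make overlap rarer by construction, and the cause of the other shifts was not tested. With 3 tumors a genotype and a recovered depth of 7285853 reads in the shallowest library, members under 1 FPKM rest on few reads.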

Other observations

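The deposited values of some abundant related genes add to the picture of which neuronal genes these tumors express. Uchl1, a ubiquitin hydrolase abundant in neurons, had 62.6, 133 and 121 FPKM in the SS18-SSX2 tumors and 43.0, 62.8 and 66.4 FPKM in the SS18-SSX1 tumors. Marcksl1 had 59.3, 65.9 and 117 FPKM in the SS18-SSX2 tumors and 91.1, 62.9 and 40.3 FPKM in the SS18-SSX1 tumors. Dpysl2, of the family of Dpysl3, had 86.3, 67.9 and 117 FPKM in the SS18-SSX2 tumors and 114, 98.9 and 45.5 FPKM in the SS18-SSX1 tumors. The calsyntenin Clstn1 had 82.7, 82.1 and 111 FPKM in the SS18-SSX2 tumors and 85.4, 64.5 and 52.3 FPKM in the SS18-SSX1 tumors, while its relative Clstn3 had higher values in SS18-SSX1 tumors. None of these 4 passed the limma test with Benjamini-Hochberg adjustment (adjusted p = 0.997 for each).

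Gad1 and Gad2, which encode the enzymes that make the transmitter GABA, were measurable in every tumor. Gad2 had 10.4, 13.0 and 8.51 FPKM in the SS18-SSX2 tumors and 30.6, 6.34 and 14.4 FPKM in the SS18-SSX1 tumors, and Gad1 had 5.74, 4.62 and 5.26 FPKM in the SS18-SSX2 tumors and 5.28, 1.79 and 2.18 FPKM in the SS18-SSX1 tumors. Both ranges overlapped between genotypes. Gad2, like Chgb and Syt1, was highest in SS18-SSX1 tumor 1.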
